A study of Mus musculus with 14 samples.

Results

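The 6 genes described here form the guanylin pathway of the intestinal epithelium, from the hormones to the enzyme that removes their second messenger. They are *Guca2a* (guanylin), *Guca2b* (uroguanylin), *Gucy2c* (the receptor guanylate cyclase C), *Prkg2* (cGMP-dependent protein kinase II), *Cftr* (the chloride channel) and *Pde5a* (a cGMP phosphodiesterase), out of 36282 gene names on the array. They were chosen for their roles and with their levels on these arrays known, so that the levels are given as a description and no test was run on them. Expression was measured on 14 one-color arrays, with 1 array per sample. Small intestine of C57BL/6J mice gave 3 arrays and colon of C57BL/6J mice gave 3. Adenomas gave 3 arrays and the tissue adjacent to adenomas gave 2, all from APCmin/+ mice, which carry a germline truncating mutation of *Apc* and develop many intestinal adenomas. The last 3 arrays were of CT26, a mouse colon carcinoma cell line grown in culture and therefore free of stroma and normal epithelium.

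The sample list of the study places all adenoma and adjacent pieces under 1 *Apc* Min/+ mouse and the small intestine samples under different C57BL/6J mice. The spread among adenoma arrays is therefore that between pieces of tissue from 1 animal, and strain, animal and tissue cannot be told apart where adenomas are set against small intestine. The sample list also has 1 colon sample from an *Apc* Min/+ mouse, while every colon label reads C57BL/6J. The paper speaks of biological replicates in cell lines for its methylation assay, but nothing states that the CT26 arrays came from separate cultures. P-values therefore measure only the spread between these samples, which may be technical. RNA was taken from whole tissue pieces, in which the marker list for epithelium was well above background on every tissue array (8 of 8 genes). In CT26, 3 of the 8 were detected in this sense on all arrays, and *Epcam*, *Cdh1*, *Vil1* and *Krt19* were on none.

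Guanylin and uroguanylin are small peptide hormones that epithelial cells secrete into the gut lumen, where they bind guanylate cyclase C on the apical membrane of neighboring cells. The receptor then makes cGMP, which activates the membrane-bound kinase encoded by *Prkg2*. This kinase phosphorylates the CFTR channel and dampens the sodium-proton exchanger NHE3, so that chloride, bicarbonate and water enter the lumen while sodium uptake falls. Phosphodiesterases such as PDE5 end the signal by hydrolyzing cGMP. Heat-stable enterotoxins of diarrhea-causing bacteria act on the same receptor, and loss of the hormones is a well-known feature of intestinal tumors.

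The genes of both hormones lie side by side on mouse chromosome 4. In the GRCm38.p6 annotation of RefSeq, *Guca2a* spans bases 119637732 to 119639465 and *Guca2b* spans 119656601 to 119658945, with 17135 bases and 0 annotated genes between them. The 250 bases upstream of each start site are shown because, of these neighbors, *Guca2b* differed between colon and small intestine and *Guca2a* overlapped, as described further on. They are written 5′ to 3′ along the strand of the gene, in lower case, with capitals for matches to the motifs that were searched.
*Guca2a*, chr4:119637482-119637731, plus strand: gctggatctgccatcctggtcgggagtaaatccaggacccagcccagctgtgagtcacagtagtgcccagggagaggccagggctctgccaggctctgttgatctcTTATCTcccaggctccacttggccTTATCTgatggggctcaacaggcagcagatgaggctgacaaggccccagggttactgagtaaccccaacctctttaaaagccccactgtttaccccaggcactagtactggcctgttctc
*Guca2b*, chr4:119658946-119659195, minus strand: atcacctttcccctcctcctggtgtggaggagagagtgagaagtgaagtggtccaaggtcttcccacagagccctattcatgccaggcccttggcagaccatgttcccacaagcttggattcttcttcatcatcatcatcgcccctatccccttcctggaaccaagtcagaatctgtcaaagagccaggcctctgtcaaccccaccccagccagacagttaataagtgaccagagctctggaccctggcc

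Motifs of 6 or 9 letters were searched on both strands of these windows, namely TTTATG for Cdx2, CAAAGTCCA for Hnf4, AGATAA for Gata factors and TATAAA for a TATA box. The *Guca2a* window held the Gata letters on the opposite strand at 2 places, 144 to 139 and 120 to 115 bases before the start, and its GC content was 57.2%. The *Guca2b* window held none of these letters, and its GC content was 54.4%. The windows of 32851 RefSeq promoters held the Gata letters in 9.99% of cases, against 10.8% for TTTATG, 0.384% for CAAAGTCCA and 12.4% for TATAAA. Windows were found for 4 of the 6 genes, and those of *Cftr* and *Pde5a* held none of the searched letters. A match is a description of the letters and not of binding.

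Values below are scaled log2 signals, that is the log2 of the background-subtracted signal of a probe minus the 75th percentile of that array, so that 0 marks this percentile. Each gene was read by 1 probe of 60 bases, spotted once per array, and levels of different genes are not comparable with each other. In the mm9 build the probes of *Guca2a* (119311857 to 119311916) and *Guca2b* (119329250 to 119329309) lie on chromosome 4, and that of *Pde5a* on chromosome 3 (122558949 to 122559008). The *Cftr* probe lies on chromosome 6 (18270974 to 18271033). The probes of *Gucy2c* (chromosome 6, 136646532 to 136648027) and *Prkg2* (chromosome 5, 99371183 to 99372439) span 1496 and 1257 bases and thus cross a splice junction. Probes of *Guca2a*, *Gucy2c*, *Prkg2* and *Pde5a* were well above background on 14 of 14 arrays, and those of *Guca2b* and *Cftr* on 12.

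One array went against its label in part, and this is given before any comparison. Colon replicate 3 carried the small intestine enterocyte list (10 genes) at a median scaled log2 signal of 5.19, against -2.71 and -2.53 in colon replicates 1 and 2 and 5.91 to 8.81 in small intestine. Its colonocyte list (9 of 10 genes on the array) lay at 2.44, against 6.44 and 6.78 in the other colon arrays and -0.84 to -0.15 in small intestine. This list was split. *Saa1* (9.38), *Car4* (6.55) and *B3galt5* (4.62) lay near or above the other colon arrays, which read 7.49 and 7.05, 5.59 and 5.11, and 5.0 and 5.49. The other 6 genes lay well below them, such as *Car1* at -3.09 against 7.17 and 7.75. The summed colonocyte level was accordingly 9.65, beside 10.45 and 9.95 in the other colon arrays and 5.51 to 6.17 in small intestine. *Apoa1*, an apolipoprotein of small intestine enterocytes, read 6.87 on this array and -6.17 and -5.99 on the other colon arrays. The Paneth cell list had a median of 7.3, against 0.75 and 3.05 in the other colon arrays, but its defensin *Defa21*, at 7.57 to 9.64 in small intestine, was not well above background on this array. This array also had the smallest share of probes well above background (46.8%, with 58.2% at most on another array). Differences of the 6 genes from colon are therefore given with and without it, and those of the other genes named where leaving it out moved them by more than 1.5-fold or changed a call.

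**Figure D1:**
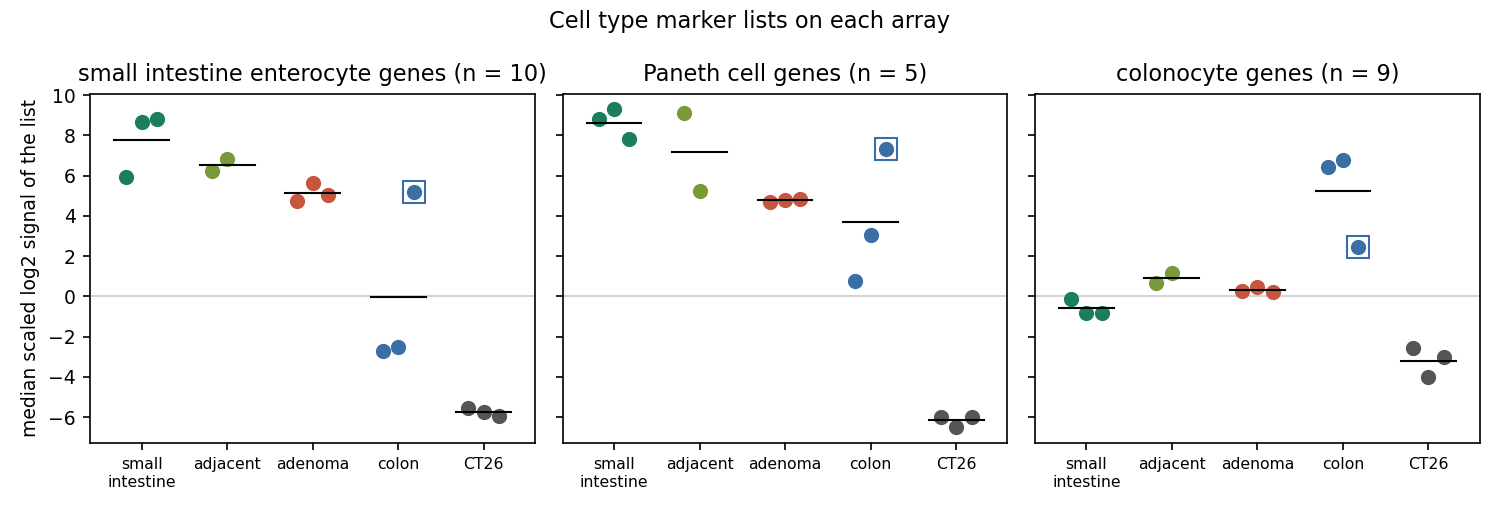
Median scaled log2 signal (y axis) of the lists for small intestine enterocytes (10 genes), Paneth cells (5 genes) and colonocytes (9 genes) on each of the 14 arrays (x axis, grouped by sample type), with a square frame on colon replicate 3. The framed array lies above the other colon arrays for enterocyte and Paneth cell genes and below them for colonocyte genes.

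Guanylin was high and uniform in healthy small intestine, and lower in every adenoma. *Guca2a* read 8.82, 8.78 and 8.65 in small intestine and 4.03, 4.7 and 5.31 in adenomas. It read 7.93 and 4.35 in adjacent tissue, 8.56, 8.8 and 8.47 in colon, and -3.27, -4.22 and -3.37 in CT26. The adjacent arrays thus stood apart from each other, one near the small intestine and the other inside the range of the adenomas. Small intestine had a mean of 8.75 ± 0.0869 (SD, n = 3), colon of 8.61 ± 0.174 (SD, n = 3), adjacent tissue of 6.14 ± 2.54 (SD, n = 2), adenomas of 4.68 ± 0.644 (SD, n = 3) and CT26 of -3.62 ± 0.522 (SD, n = 3). In that order, small intestine and colon overlapped, as did adjacent tissue and adenomas, and no other neighbors did. In bulk RNA, fewer cells of a type and less RNA per cell cannot be told apart, here and in all results that follow.

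Uroguanylin was highest in the small intestine and low in colon replicates 1 and 2. *Guca2b* read 8.65, 9.49 and 9.67 in small intestine, 8.08 and 7.87 in adjacent tissue and 4.76, 6.17 and 6.38 in adenomas. It read 4.18 and 3.82 in colon replicates 1 and 2 and 8.2 in replicate 3, the array with enterocyte genes. In CT26 it read -6.8, -4.93 and -5.07, well above background in replicate 2 alone. Small intestine (9.27 ± 0.541, SD, n = 3), adjacent tissue (7.98 ± 0.143, SD, n = 2) and adenomas (5.77 ± 0.882, SD, n = 3) followed each other without overlap. Colon lay at 5.4 ± 2.43 (SD, n = 3) with replicate 3 and at 4.0 ± 0.258 (SD, n = 2) without it.

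The receptor varied less than the hormones, and its groups did not overlap at any step of their order. *Gucy2c* read 3.8, 4.21 and 4.2 in small intestine, 3.44, 3.32 and 3.59 in colon, 3.17 and 3.12 in adjacent tissue, 1.82, 1.47 and 1.96 in adenomas and -3.33, -3.74 and -3.72 in CT26. Means fell from 4.07 ± 0.232 (SD, n = 3) in small intestine to 3.45 ± 0.132 (SD, n = 3) in colon, 3.15 ± 0.0329 (SD, n = 2) in adjacent tissue and 1.75 ± 0.251 (SD, n = 3) in adenomas. CT26 lay lowest, at -3.6 ± 0.235 (SD, n = 3). All 3 colon arrays lay close together here, replicate 3 included.

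The kinase was the gene that stood highest in the cell line. *Prkg2* read 6.9, 4.55 and 5.64 in CT26, above all tissue arrays. It read 2.75, 3.9 and 4.11 in small intestine, 2.59 and 3.24 in adjacent tissue, 2.1, 1.94 and 3.19 in colon and 0.96, 1.44 and 1.66 in adenomas. The adenomas lay below every other array. The mean was 5.7 ± 1.18 for CT26 (SD, n = 3), 3.58 ± 0.73 for small intestine (SD, n = 3), 2.92 ± 0.464 for adjacent tissue (SD, n = 2), 2.41 ± 0.682 for colon (SD, n = 3) and 1.35 ± 0.356 for adenomas (SD, n = 3). Small intestine, adjacent tissue and colon overlapped with their neighbors in this order.

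The channel and the phosphodiesterase overlapped between neighboring tissues in the order of their means. *Cftr* read 0.84, 0.17 and 0.33 in small intestine, 0.79 and 1.03 in adjacent tissue, 0.82, 1.62 and 1.57 in adenomas and 0.84, 0.3 and 1.2 in colon, with the highest mean in adenomas. In CT26 it read -4.25, -6.19 and -5.3, well above background in replicate 1 alone. *Pde5a* read 0.21, -0.19 and 1.4 in small intestine, 0.34 and 0.86 in adjacent tissue, -0.74, -1.11 and 0.15 in adenomas and -0.12, -0.35 and 0.31 in colon. Every adenoma array lay below both adjacent arrays for *Pde5a*. CT26 lay below all tissues, with -2.25, -1.2 and -1.27. Mean *Cftr* ran from 1.33 ± 0.45 (SD, n = 3) in adenomas to 0.45 ± 0.353 (SD, n = 3) in small intestine and was -5.25 ± 0.97 (SD, n = 3) in CT26. Mean *Pde5a* ran from 0.6 ± 0.369 (SD, n = 2) in adjacent tissue to -0.57 ± 0.649 (SD, n = 3) in adenomas and was -1.57 ± 0.59 (SD, n = 3) in CT26.

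**Figure D2:**
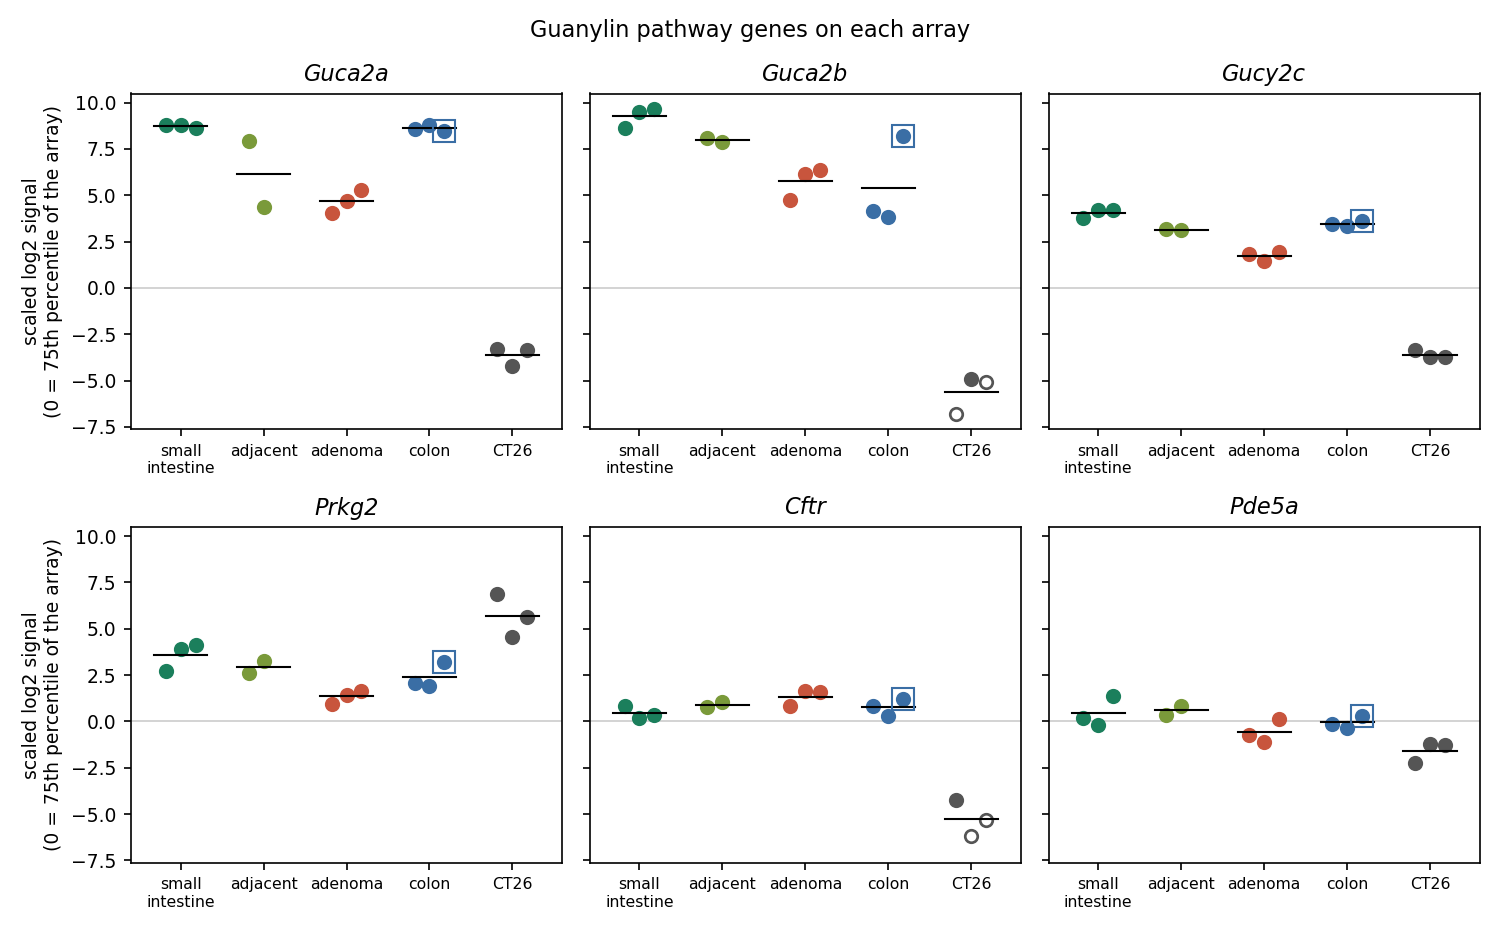
Scaled log2 signal (y axis) of the 6 genes on each of the 14 arrays (x axis, grouped by sample type), 1 panel per gene, with a black line at the group mean, open symbols where the probe was not well above background and a square frame on colon replicate 3. *Guca2a*, *Guca2b*, *Gucy2c* and *Prkg2* lie lower in adenomas than in small intestine, and *Prkg2* alone is highest in CT26.

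Adenomas were compared with small intestine to see which part of the pathway differed in tumors. Both hormones, the receptor and the kinase were lower in adenomas on every array, the hormones by the most. The difference in *Guca2a* was -4.07 ± 0.375 (standard error of the log2 difference), or 16.8-fold, and that in *Guca2b* was -3.5 ± 0.598, or 11.3-fold. The receptor *Gucy2c* lay 5.0-fold lower (-2.32 ± 0.197) and *Prkg2* 4.69-fold lower (-2.23 ± 0.469). The groups overlapped for *Cftr* (0.89 ± 0.33) and for *Pde5a* (-1.04 ± 0.609). In all, 4 of 6 genes did not overlap between the groups, all 4 lower in adenomas, and this was so for 65.2% of all 22149 genes tested in this comparison. The median difference over the 6 genes was -2.27, and that over all genes tested -0.15, but the choice of the genes used these values. The arrays lay on 2 slides, and the differences within slide 1 and slide 2 were -4.06 and -4.08 for *Guca2a*, and -3.59 and -3.32 for *Guca2b*. For the receptor they were -2.12 and -2.74, and for the kinase -2.12 and -2.46.

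Cell type markers moved in the same comparison. All 10 small intestine enterocyte genes were lower in adenomas, with a summed level (log2 of the summed scaled signals) of 11.07 to 12.14 in small intestine, 10.93 to 11.07 in adjacent tissue and 8.57 to 9.3 in adenomas. Goblet cell genes, of a secretory lineage, were lower for 5 of 7, with summed levels of 11.42 to 11.6 in small intestine and 9.94 to 10.37 in adenomas. Genes of proliferation were higher for 10 of 10, from 5.61 to 6.51 up to 7.35 to 7.49, and those of smooth muscle were lower for 8 of 8, from 7.8 to 9.61 down to 7.38 to 7.98. The epithelium list itself had a median log2 signal of 7.98 to 8.49 in small intestine and 7.23 to 7.63 in adenomas. No defining gene of these lists was below background in either tissue. Paneth cell genes were lower for 4 of 5 (median -1.96), and genes of intestinal stem cells were higher for 6 of 7 (1.79). Neutrophil and monocyte genes were higher for 5 of 5 (median 4.51), although their summed level, 4.9 to 5.72 in small intestine and 5.57 to 5.79 in adenomas, overlapped, and small intestine arrays did not detect 2 of the 5 above background, nor adenoma arrays 1. Their part in the lower hormone and receptor signals was not tested.

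The other genes of the pathway were followed in 5 lists with 68 genes in all, for cGMP synthesis, its breakdown and export, its effectors, epithelial ion transport and intestinal transcription factors. In adenomas against small intestine, 54 of the 68 were measured, of which 9 were called higher and 18 lower, where 11.3% and 11.1% of all genes tested were called higher and lower. The median log2 difference of these 54 genes was -0.59. A call required a log2 difference of at least 1.2 in size and a limma adjusted p of at most 0.01, adjusted over all probes tested. The lists were drawn up with earlier results of these arrays known, and their counts are not independent support for a direction.

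In the list for cGMP breakdown and export (12 genes measured), 3 were higher and 2 lower in adenomas. *Pde10a*, which hydrolyzes cGMP and cAMP, rose by 4.79 ± 0.203 (limma adjusted p = 4.82e-05), from a mean of -4.23 in small intestine, where it was well above background on 1 of 3 arrays, to 0.56. The cyclic nucleotide exporter *Abcc4* rose by 3.81 ± 0.261 (limma adjusted p = 0.000126). *Pde3b* rose by 1.32 ± 0.218. The cGMP-specific *Pde9a* went the other way, 6.07-fold lower (-2.6 ± 0.155, limma adjusted p = 9.22e-05), as did *Pde6d* (-1.34 ± 0.168), which is listed here by its name but encodes a prenyl-binding protein with no phosphodiesterase activity. The phosphodiesterases *Pde10a* and *Pde9a* thus moved in opposite directions.

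In cGMP synthesis, 1 of 5 measured genes was called, the endothelial nitric oxide synthase *Nos3*, which rose by 2.03 ± 0.289 (limma adjusted p = 0.00157). Of 7 measured effectors of cGMP, 1 was called, the myosin kinase *Mylk* of smooth muscle, at -1.71 ± 0.226 (limma adjusted p = 0.00119). Both genes are known mainly from cells other than epithelium, and the endothelial list was higher in adenomas for 5 of 6 genes while smooth muscle was lower. The part of endothelium and smooth muscle in these calls was not tested.

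Epithelial ion transport was the list with the most calls, 5 higher and 9 lower of 20 genes measured. The strongest falls were in scaffold proteins that hold CFTR and NHE3 at the apical membrane, but another of these, *Slc9a3r2*, lay higher in adenomas. Its difference of 1.14 ± 0.211 (limma adjusted p = 0.00459) was under the size needed for a call. *Pdzk1* was 41.9-fold lower (-5.39 ± 0.354, limma adjusted p = 0.000114), *Pdzd3* 8.66-fold lower (-3.12 ± 0.23, limma adjusted p = 0.000148) and *Slc9a3r1* 7.43-fold lower (-2.89 ± 0.218, limma adjusted p = 0.000156). The sodium-proton exchanger *Slc9a2* fell by 2.43, whereas *Slc9a3*, the gene of NHE3, overlapped between the groups (0.34 ± 0.956). The potassium channel subunit *Kcne3* rose by 2.57 ± 0.315 and the calcium-activated chloride channel *Ano1* by 2.46 ± 0.178 (limma adjusted p = 0.000881 and 0.000143), whereas the chloride channel *Clcn2* (-1.66) and the anion exchangers *Slc26a3* (-2.31) and *Slc26a6* (-2.19) were called lower. *Kcnn4*, another potassium channel, rose by 1.9 ± 0.363. The sodium channel subunit *Scnn1b* was also called higher (1.9 ± 0.306) but was well above background on no small intestine array. Its adenoma mean of -4.76 lay near the lowest signals detected on those arrays (-5.03, -4.12 and -4.35), so no bound on its rise can be given.

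Of 10 intestinal transcription factors, 6 fell and none rose. They were led by *Klf4* (-3.06 ± 0.284, limma adjusted p = 0.000313), a factor of differentiated epithelium, and *Hnf4g* (-2.54 ± 0.374, limma adjusted p = 0.00183). The homeobox factors *Cdx1* (-1.75 ± 0.233) and *Cdx2* (-1.41 ± 0.215) followed. The median difference of this list was -1.31.

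**Figure D3:**
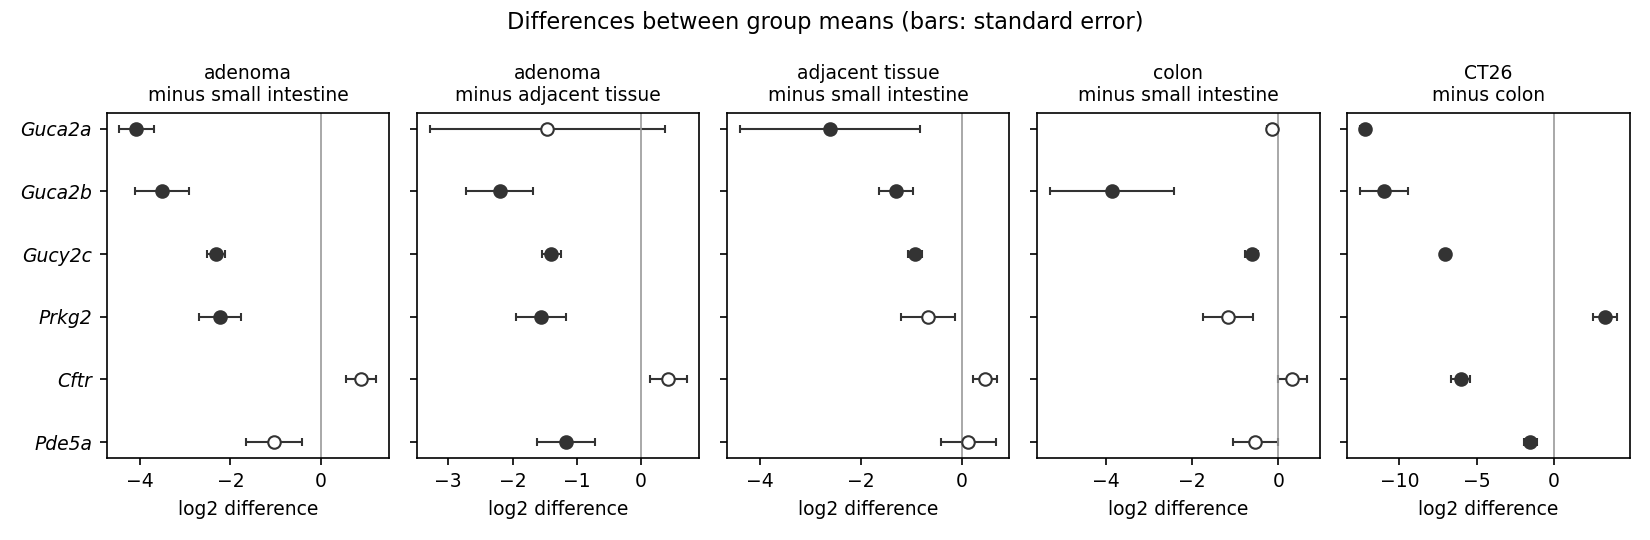
Log2 difference between group means (x axis, with the standard error as bar) for the 6 genes in 5 comparisons, 1 panel each with its own scale, open symbols where arrays of the groups overlapped. *Guca2a*, *Guca2b*, *Gucy2c* and *Prkg2* lie left of 0 in adenomas against small intestine, and *Prkg2* alone lies right of 0 in CT26 against colon.

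Adenomas were set against the adjacent tissue, which came from the same mouse by the sample list. If so, this removes the difference between animals, but it leaves 2 arrays on one side. Uroguanylin, the receptor, the kinase and the phosphodiesterase were lower in adenomas without overlap, and guanylin was not separable. *Guca2b* lay 4.61-fold lower (-2.2 ± 0.519), *Gucy2c* 2.64-fold lower (-1.4 ± 0.147), *Prkg2* 2.95-fold lower (-1.56 ± 0.387) and *Pde5a* 2.25-fold lower (-1.17 ± 0.457). These 4 of 6 genes stood against 57.1% of all 22253 genes tested whose groups did not overlap. *Guca2a* differed by -1.46 ± 1.83, by -3.27 within slide 1 and by 0.35 within slide 2, so that its direction rested on which adjacent array was taken. *Cftr* overlapped (0.42 ± 0.287).

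The adjacent arrays differed in cell type markers as well. The Paneth cell list summed to 11.12 in replicate 1, which had the high guanylin signal, and to 9.15 in replicate 2. Goblet cell genes summed to 10.49 and 9.62, smooth muscle genes to 9.85 and 8.55, enterocyte genes to 11.07 and 10.93 and epithelium to 10.8 and 10.44. *Guca2b* and *Gucy2c* did not differ in this way between these 2 arrays. The part of cell composition in the guanylin values was not tested.

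Of 54 pathway genes measured in this comparison, 3 were called higher and 4 lower, where 2.4% and 1.78% of all genes tested were called. *Pde10a* rose by 2.24 ± 0.181 (limma adjusted p = 0.0035), *Ano1* by 2.31 ± 0.237 and *Kcne3* by 1.67 ± 0.219 (limma adjusted p = 0.00553 and 0.00899). *Pdzk1* was at -3.58 ± 0.437 and *Pdzd3* at -1.98 ± 0.251 (limma adjusted p = 0.00759 and 0.00829). The chloride-bicarbonate exchanger *Slc26a3* was at -2.02 ± 0.169 and *Pde9a* at -1.4 ± 0.146 (limma adjusted p = 0.00379 and 0.00575). These calls depended on the setting, since with slide or replicate number as a block, or without any 1 of the adenoma arrays, 0 genes were called.

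Adjacent tissue against small intestine asked whether the pathway already differed outside the adenomas. Both hormones and the receptor were lower in adjacent tissue on both arrays. *Guca2a* differed by -2.61 ± 1.79, *Guca2b* by -1.3 ± 0.328 (2.45-fold) and *Gucy2c* by -0.92 ± 0.136 (1.9-fold). The other genes overlapped, with *Prkg2* at -0.67 ± 0.534, *Cftr* at 0.46 ± 0.237 and *Pde5a* at 0.13 ± 0.546. These 3 of 6 genes stood against 52.9% of all 21692 genes tested without overlap. Markers moved in this comparison too. The epithelium list was lower in adjacent tissue for 8 of 8 genes (median log2 difference -0.86), enterocyte genes for 10 of 10 (-1.32) and goblet cell genes for 7 of 7 (-1.08), while endothelial genes were higher for 5 of 6 (1.87). The difference in *Gucy2c* was about as large as that of the epithelium list, and the part of cell composition was not tested. On a line from small intestine (0) to adenoma (1), the adjacent mean lay at 0.37 for *Guca2b*, 0.4 for *Gucy2c*, 0.3 for *Prkg2*, 0.52 for *Cftr* and 0.64 for *Guca2a*, where the last again averages 2 unlike arrays. *Pde5a* lay outside this line, at -0.13. The 3 groups share arrays between these comparisons, so these positions are no independent evidence of a gradient.

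No pathway gene was called between adjacent tissue and small intestine by limma (0 of 53, with 21 at an unadjusted p under 0.05, as had 30.4% of all probes tested), where 0.00922% of all genes were called higher and 0% lower. The values nearest to a call were *Pde10a* at 2.55 (limma adjusted p = 0.0344), *Klf4* at -2.51 (limma adjusted p = 0.0415) and *Pdzk1* at -1.81 (limma adjusted p = 0.0467). *Abcc4* was at 3.06 and *Pde9a* at -1.2 (limma adjusted p = 0.0504 and 0.0514).

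Colon and small intestine of C57BL/6J mice differed in uroguanylin and not detectably in guanylin. *Guca2a* differed by -0.14 ± 0.112 with all colon arrays and by -0.07 ± 0.134 without colon replicate 3, with overlap in both. *Guca2b* was lower in colon by 14.6-fold (-3.87 ± 1.44) with all arrays and by 38.7-fold (-5.27 ± 0.362) without replicate 3. The difference between the tissues was thus seen for one hormone gene and not for its neighbor, without a test of this contrast, and the array with small intestine markers was the colon array with the highest *Guca2b*. *Gucy2c* lay 1.54-fold lower in colon (-0.62 ± 0.154), and 1.61-fold lower without replicate 3. *Prkg2* overlapped with all arrays (-1.17 ± 0.577) and was 2.96-fold lower without replicate 3 (-1.56 ± 0.429) and without overlap. *Cftr* (0.33 ± 0.332) and *Pde5a* (-0.53 ± 0.518) overlapped either way. Of the 6 genes, 2 did not overlap with all arrays, against 29.2% of all 20688 genes tested, and 3 without replicate 3, against 60.2% of 22653.

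Adenomas arise in the small intestine of these mice, and their hormone levels were also set beside those of the colon. *Guca2b* in adenomas was 3.42-fold above colon replicates 1 and 2 (1.77 ± 0.541), and overlapped with colon once replicate 3 was included (0.37 ± 1.49). *Guca2a* in adenomas was 15.2-fold below colon (-3.93 ± 0.385), and 16.0-fold without replicate 3. *Gucy2c* was 3.25-fold below colon (-1.7 ± 0.164), and 3.1-fold without replicate 3.

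No pathway gene was called between colon and small intestine with all arrays (0 of 54 by limma, with 17 at an unadjusted p under 0.05, as had 23.5% of all probes tested), where 0.00483% of all genes were called higher and 0.00483% lower. Without colon replicate 3, 6 of 58 were higher and 6 lower, where 3.33% and 3.91% of all genes were called. The anion channel *Best2* of colonic goblet cells was higher by 8.46 ± 0.601 and the sodium channel subunit *Scnn1a* by 2.34 ± 0.257 (limma adjusted p = 0.000852 and 0.00325). *Scnn1b*, another subunit, was well above background on no small intestine array and at least 10.9-fold higher in colon (limma adjusted p = 0.000657). *Ano1* was higher by 3.45 ± 0.283 and *Pde2a* by 2.51 ± 0.331. The cyclic nucleotide-gated channel *Cnga3* was at least 2.68-fold higher (limma adjusted p = 0.00442), also well above background on no small intestine array. Lower in colon were the scaffold *Pdzk1* (-11.81 ± 0.498, limma adjusted p = 0.000192) and the exchanger *Slc26a6* (-8.21 ± 0.265, limma adjusted p = 0.000107). *Slc9a3r1* and *Pdzd3*, also scaffolds, were lower by smaller amounts, at -3.0 ± 0.304 and -2.34 ± 0.251. The scaffold *Slc9a3r2* was not called and had a higher mean in colon (1.37 ± 0.437, limma adjusted p = 0.0679). The factors *Gata4* (-6.54 ± 0.938) and *Hnf4g* (-4.8 ± 0.428), both known from proximal intestine, completed the calls (limma adjusted p = 0.00726 and 0.00178). *Pdzk1* and *Gata4* were well above background on 1 of these 2 colon arrays.

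**Figure D4:**
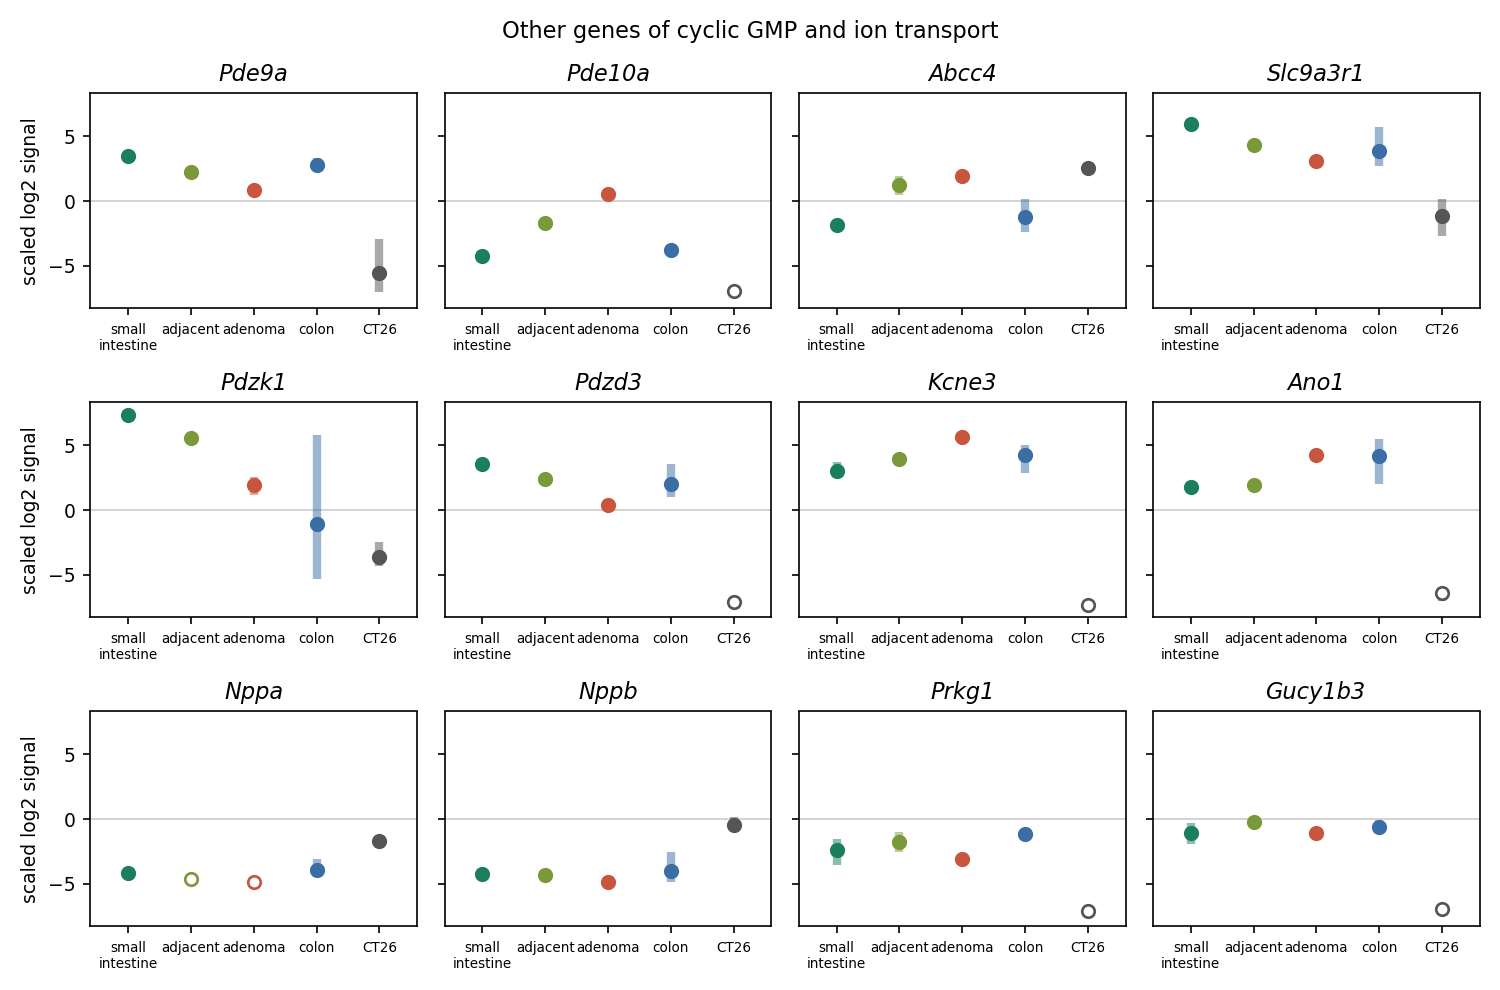
Scaled log2 signal (y axis) of 12 further pathway genes in the 5 groups (x axis), with points for group means, bands from the lowest to the highest array and open symbols where the probe was well above background on no array. *Pdzk1* and *Pde9a* are lower in adenomas than in small intestine, *Pde10a* and *Abcc4* are higher, and most genes are at their lowest in CT26.

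CT26 cells were compared with colon, the tissue of their origin, to see what remained of the pathway in a carcinoma line. The hormones, the receptor, the channel and the phosphodiesterase were all lower, and the kinase was higher. *Guca2a* differed by -12.23 ± 0.318 (4800-fold), or by -12.3 ± 0.326 without colon replicate 3, and was still well above background in all 3 CT26 arrays. *Guca2b* differed by -11.0 ± 1.53 with all colon arrays and by -9.6 ± 0.629 without colon replicate 3. *Gucy2c* lay 132-fold lower (-7.05 ± 0.156) and *Cftr* 65.0-fold lower (-6.02 ± 0.618). *Pde5a* lay 2.87-fold lower (-1.52 ± 0.393). Without colon replicate 3 these were 126-fold, 56.2-fold and 2.53-fold. *Prkg2* was 9.76-fold higher (3.29 ± 0.786), by 4.34 within slide 1 and by 1.9 within slide 2, and 12.8-fold higher without colon replicate 3. All 6 genes did not overlap between the groups, 5 lower and 1 higher, against 63.3% of all 21744 genes tested. Without colon replicate 3 all 6 again did not overlap, against 74.1% of 23240 genes.

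The size of the largest of these differences depended on how weak signals were treated. With normexp background correction the difference was -11.09 for *Guca2a*, -8.56 for *Guca2b* and -4.06 for *Cftr*, and in the normalized table of the authors it was -10.84, -8.32 and -3.77. The direction stayed the same in each. Since whole colon was set against a cell line, the marker lists differed too, with proliferation genes higher in CT26 for 10 of 10 and epithelium genes lower for 8 of 8. The part of cell composition in these differences was not tested.

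Of 53 pathway genes measured between CT26 and colon, 3 were called higher and 32 lower, where 21% and 16.2% of all genes tested were called. Their median log2 difference was -4.93, and -4.04 with the genes below background in CT26 at their bound, against 0.32 for all genes tested. Without colon replicate 3, 6 of 59 were higher and 39 lower, where 20.1% and 19.4% of all genes were called. By list, 2 of 7 synthesis genes were higher and 2 lower, 1 of 10 breakdown and export genes was higher and 5 lower, and 5 of 8 effectors, 14 of 19 ion transport genes and 6 of 9 factors were lower. The genes that rose were the natriuretic peptides *Nppb* (3.57 ± 0.633, limma adjusted p = 0.0025) and *Nppa* (2.22 ± 0.404, limma adjusted p = 0.00276), whose receptors are guanylate cyclases as well, and *Abcc4* (3.78 ± 0.61, limma adjusted p = 0.00159). *Nppa* was well above background on 2 of 3 colon arrays. Of the natriuretic peptide receptor genes listed, *Npr1* was well above background on no array of any group, and *Npr2* on all arrays. Without colon replicate 3, *Nppb* differed by 4.29 ± 0.382, and the further genes called higher were *Pde6d* (1.86 ± 0.355), *Slc26a6* (1.79 ± 0.281) and *Gata4* (3.96 ± 0.75), with a limma adjusted p of 0.00382, 0.00155 and 0.00367.

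Both subunits of soluble guanylate cyclase, the nitric oxide receptor, were not well above background on any CT26 array. *Gucy1a3* was at least 30.6-fold lower and *Gucy1b3* at least 20.5-fold lower than in colon (limma adjusted p = 4.93e-06 and 6.57e-06). *Prkg1*, the cGMP kinase of smooth muscle, was at least 14.3-fold lower (limma adjusted p = 5.1e-06), in contrast to the higher *Prkg2*. The other called effectors with the largest differences were *Rgs2* (-8.84 ± 0.373), *Mrvi1* (-7.11 ± 0.543) and *Mylk* (-5.96 ± 0.498), with a limma adjusted p of 2.16e-06, 3.85e-05 and 6.02e-05. Of the 3 CT26 arrays, 1 had *Rgs2* well above background and 2 had *Mrvi1*. The phosphodiesterases *Pde3a* (at least 25.7-fold) and *Pde1a* (at least 7.13-fold) were lower too, and *Pde2a* fell by 7.13 on the log2 scale (-7.91 without colon replicate 3). Most of these genes are known from smooth muscle and vessels. Of 8 smooth muscle markers, 4 (*Myh11*, *Cnn1*, *Des* and *Myl9*) were well above background on no CT26 array, and 4 were on all. The list was lower than in colon for 8 of 8 genes, though *Smtn* read 4.95, 3.36 and 3.64 in CT26 and 5.13, 5.04 and 4.16 in colon. The part of cell composition was not tested. *Pde9a* was lower by a log2 difference of -8.38 ± 1.02 (limma adjusted p = 0.000388), well above background on 1 of 3 CT26 arrays. The ion transport genes *Kcne3* (at least 614-fold), *Ano1* (at least 560-fold), *Slc9a3*, which encodes NHE3 (at least 496-fold), and *Slc26a3* (at least 321-fold) were lower as well. Without colon replicate 3 the bounds were at least 993-fold for *Kcne3* and at least 1170-fold for *Ano1*. Also lower were the factors *Hnf4a* (at least 4690-fold), *Cdx1* (at least 3350-fold) and *Gata6* (at least 123-fold). The 7 transport genes and factors named had a limma adjusted p between 5.39e-07 and 5.09e-05.

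**Figure D5:**
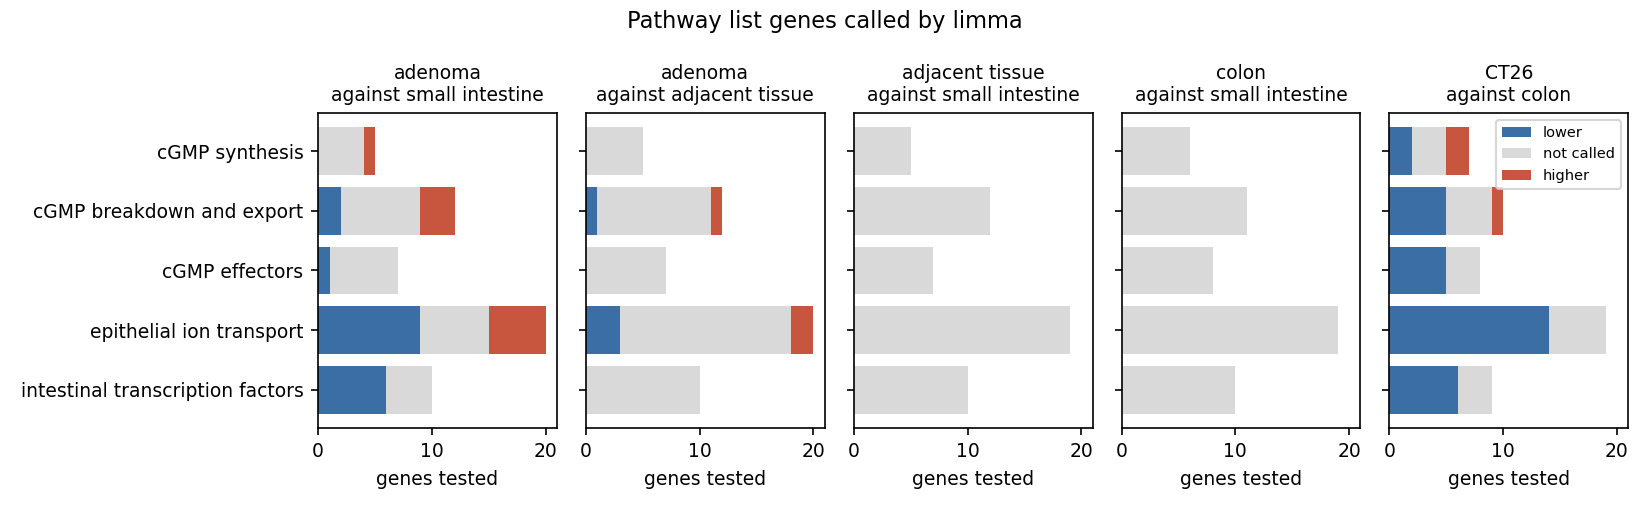
Number of pathway genes (x axis) called lower, not called and called higher among those measured, for the 5 lists (y axis) in each comparison. Calls in both directions appear in adenomas against small intestine, and lower calls prevail in CT26 against colon.

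The genes whose profile over the 14 arrays was most like that of each gene were found by the root mean square difference between centered log2 profiles, among 15063 named genes. For *Guca2b* these were *Prxl2b*, *Mep1b* (a brush border protease) and *Apob* (the apolipoprotein of chylomicrons), each at 0.71, where *Guca2b* itself had an SD of 5.49 over the arrays. For *Guca2a* they were *Scin* at 0.74, *Pmp22* at 0.86 and *Ccl6* at 0.95 (own SD 4.74). For *Gucy2c* they were *Fam183b* at 0.27, *Prkcz* at 0.29 and the vitamin D receptor *Vdr* at 0.35 (own SD 2.86). The distance between the hormones was 2.3. The nearest to *Prkg2* were *Gadd45a* at 0.38, *Got1* at 0.42 and *Ptpn22* at 0.51 (own SD 1.62). For *Cftr* they were *Rangrf* at 0.37, *Ssh3* at 0.38 and *Cdyl* at 0.46 (own SD 2.57), and for *Pde5a* they were *Ap1g2* at 0.4 and *Agxt2* and *Net1* at 0.45 each (own SD 0.92). *Prkg2* was the farthest from the hormones, at 5.89 from *Guca2a* and 6.63 from *Guca2b*. These distances are a description over arrays that share groups, slides and animals.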

How the data were processed

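RNA of 14 samples was hybridized to Agilent SurePrint G3 Mouse arrays in one color. The authors deposited the scanner output of Feature Extraction 10.7.3.1 (mm9 design), in which the processed intensity of a spot is background-subtracted but not scaled across arrays. The authors' second deposit was a table of normalized log2 values with the same distribution on every array, used here as an alternative. Its 28 further columns per sample, and its columns on 7 comparisons (fold changes and p-values of the authors), were not used.

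Control and outlier spots were left out, and log2 signals were shifted by the 75th percentile of their array and averaged over the spots of a probe (55681 probes). RefSeq accessions gave 26582 probes a GRCm38.p6 name, and 29099 kept the name in the files. A gene was read from its brightest probe. Groups came from the sample labels. For each pair of groups limma 3.58.1 (R 4.3.3, lmFit and eBayes) was fitted on its own arrays, over probes that all arrays of 1 or both groups detected above background, with Benjamini-Hochberg adjustment, and a gene was called at a log2 difference of 1.2 and an adjusted p of 0.01. The script was tested on simulated data. A probe well above background on no array of the dimmer group has a bound, "at least N-fold", which sets the brighter mean against the lowest signal well above background on the dimmer arrays, or the probe's own if higher. The share of probes well above background ranged from 46.8% to 58.2% per array, and the number of arrays limits the precision.

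The members and the lists were chosen with earlier results of these data known. The text names every member and, per comparison and list, the called genes with the largest differences, up to 4 in each direction. One of these genes and a searched motif are not reported here. The values of genes near a call between adjacent tissue and small intestine, and of other genes not called, were chosen after they were seen. The same holds for the description of adenomas beside colon and the omission of uncharacterized names from the profile comparison. The alternatives were normexp (offset 50), quantile normalization, the authors' table, other filters on dim probes, 1 fit of all 5 groups, slide or replicate number as a block, values within each slide and the omission of each array.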

Additional observations from a re-analysis of the deposited data

How the results depend on the processing

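Of 30 differences of the 6 genes (5 comparisons), 25 kept their sign under the alternatives run on them. The other 5 were *Guca2a* between adenomas and adjacent tissue (-3.27 to 0.35), *Pde5a* between adjacent tissue and small intestine (-0.46 to 1.06), and *Guca2a* (-0.26 to 0.07), *Cftr* (-0.29 to 0.85) and *Pde5a* (-1.16 to 0.29) between colon and small intestine. Filters on dim probes and 1 fit of all groups cannot move a difference of means, by construction. Depth on arrays is signal over background, and it limits *Guca2b* and *Cftr* in CT26, where 1 of 3 arrays was well above background.

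Counts of pathway genes called changed more. With 1 fit of all 5 groups they were 17 in place of 27 between adenomas and small intestine, 1 in place of 7 between adenomas and adjacent tissue, and 2 in place of 0 for adjacent tissue and for colon against small intestine. Between adenomas and adjacent tissue, 0 were called with no filter on dim probes (35 at an unadjusted p under 0.05) and 0 with slide as a block (36). The deviations of same-numbered arrays from their group means had correlations of -0.00986 and -0.0355 here. With 2 adjacent arrays these deviations mirror each other, so the correlations cannot decide whether the numbers pair the samples. With the replicate block 0 were called (27 at an unadjusted p under 0.05). A block by the numbers in the titles, added after seeing the data, also gave 0 (25). The replicate block gave 24 between adenomas and small intestine, 0 for adjacent tissue and for colon against small intestine and 35 for CT26. With only probes well above background in both groups, 11 of 26 were called between CT26 and colon, in place of 3 higher and 32 lower of 53. This filter leaves out genes detected on all arrays of only 1 group. Of the 53 genes, 19 were well above background on no array of 1 of the groups.

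Without 1 array at a time, the counts ranged from 20 to 28 between adenomas and small intestine, from 0 to 13 between adenomas and adjacent tissue (0 without any adenoma array, 1 without adjacent replicate 1, 13 without adjacent replicate 2), from 0 to 0 between adjacent tissue and small intestine, from 0 to 12 between colon and small intestine and from 30 to 45 between CT26 and colon, where 12 and 45 are those without colon replicate 3. A lone adjacent array is assumed to vary like the adenomas. The cause of the other changes was not tested.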
